A study of Mus musculus with 7 samples.

Results

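The 36 genes described here are immediate-early and stress response genes: AP-1 subunits, EGR, NR4A and KLF transcription factors, neuronal activity genes, IER and BTG proteins, feedback inhibitors, the secreted protein Cyr61 and a group of stress and survival proteins. They were found by gene symbol among 49315 genes in each count table. All 36 had enough reads to be among the 16616 genes tested. The data are bulk RNA-seq of oligodendroglia from mouse brain, with 4 libraries of cells of genotype Sox9-tg, which overexpress the transcription factor Sox9, and 3 libraries of control cells of genotype Sox9-wt. The series title places the cells among early postnatal NG2 glia, the progenitors of myelinating oligodendrocytes, and gives the search for Sox9 target genes as the purpose. The labels call the libraries biological replicates. They give no promoter or Cre line for the transgene, no strain, no sorting or culture step, and no pooling or litter. The spread behind every p-value is therefore that of these 7 libraries and could be technical in part.

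Immediate-early genes are switched on within minutes of a signal, without the need for new protein synthesis. Growth factors, calcium entry, cyclic AMP and stress act through kinases such as ERK, p38 and protein kinase A on factors that already sit at the promoters, among them CREB and the pair of SRF with its ternary complex partners. The products are mostly transcription factors that pass the signal on, or inhibitors that end it, and both the transcripts and the proteins decay quickly. In the nervous system these genes are known as markers of neuronal firing, and in tissue taken apart into single cells they are also known to respond to the procedure itself. The labels record neither stimulation nor how the cells were handled.

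RefSeq promoter windows on the mouse build GRCm38.p6, each from 250 bases before to 50 bases after a RefSeq start, were matched by symbol and used for 30 of the members. A RefSeq start can differ from that in the GENCODE annotation used below for gene spans. The Jund window, for example, lies wholly before the GENCODE start of that gene. The letters TGACG on either strand, the core of the cAMP response element to which CREB binds, were in 18 of the 30 windows (60.0%), against 20.8% of 32851 promoter windows of the genome. The whole element TGACGTCA, which holds the core on both strands, was in 3 of 30 windows (10% against 1.79%), those of Btg2, Dusp1 and Ppp1r15a. A CArG box, the SRF site, was in 2 of 30 (6.67% against 1.63%), those of Dusp5 and Zfp36. An EGR site, searched as GCGNGGGCG, was in 11 of 30 (36.7% against 5.55%). GAANNTTC, a pair of heat shock units, was in 4 of 30 (13.3% against 7.86%), those of Fosl2, Jun, Hspa1a and Hspa1b. The AP-1 letters TGANTCA were in 0 of 30 windows against 7.81% of all windows, and the NR4A site AAAGGTCA in 0 of 30 against 1.51%. All motifs were searched on both strands. Member windows were also richer in G and C, with a median of 65.0% against 52.7%, and the core and the EGR site both hold the letters CG. A match describes the letters of these windows and is not a measured binding site. The windows of Fos, Nr4a1, Egr4 and Ier5 are shown to set 3 genes with a positive fold change beside the only member called lower. Capitals mark the core, written TGACG or, on the other strand, CGTCA, and each window reads 5′ to 3′ along its gene.
Fos promoter (chr12:85473640-85473939, plus strand): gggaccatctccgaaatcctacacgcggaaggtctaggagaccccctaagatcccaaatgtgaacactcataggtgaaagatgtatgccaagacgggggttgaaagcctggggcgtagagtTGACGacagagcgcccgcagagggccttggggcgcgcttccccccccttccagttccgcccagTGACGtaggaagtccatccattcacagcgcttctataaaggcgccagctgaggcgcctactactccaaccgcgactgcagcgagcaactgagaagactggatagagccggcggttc
Nr4a1 promoter (chr15:101266596-101266895, plus strand): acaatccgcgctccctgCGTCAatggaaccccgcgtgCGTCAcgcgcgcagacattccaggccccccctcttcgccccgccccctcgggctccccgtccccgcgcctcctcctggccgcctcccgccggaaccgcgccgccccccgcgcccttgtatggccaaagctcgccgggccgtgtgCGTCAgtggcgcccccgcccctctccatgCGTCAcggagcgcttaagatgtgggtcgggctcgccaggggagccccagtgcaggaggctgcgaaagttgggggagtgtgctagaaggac
Egr4 promoter (chr6:85513540-85513839, minus strand): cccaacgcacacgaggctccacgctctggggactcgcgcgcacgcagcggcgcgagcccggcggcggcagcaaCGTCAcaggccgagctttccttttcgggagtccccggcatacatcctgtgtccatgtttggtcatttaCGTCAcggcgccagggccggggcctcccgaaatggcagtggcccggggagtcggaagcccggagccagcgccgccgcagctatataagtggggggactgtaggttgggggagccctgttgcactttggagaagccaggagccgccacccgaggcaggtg
Ier5 promoter (chr1:155099587-155099886, minus strand): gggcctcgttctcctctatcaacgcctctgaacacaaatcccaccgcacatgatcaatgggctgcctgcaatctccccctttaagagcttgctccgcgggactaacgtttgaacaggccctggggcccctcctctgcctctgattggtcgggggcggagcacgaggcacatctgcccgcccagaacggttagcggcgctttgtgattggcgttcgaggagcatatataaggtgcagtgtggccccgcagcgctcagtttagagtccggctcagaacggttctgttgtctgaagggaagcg
The core was found 2 times in the Fos window, 4 times in that of Nr4a1, 2 times in that of Egr4 and 0 times in that of Ier5. These windows were picked by fold change and do not stand for all members. The windows of Jun and Egr2, which had positive fold changes, held 0 cores. That of Btg2, which had a negative fold change, held 2. A link between core and fold change was not tested.

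Most of the members are also short genes, and a larger share of them than of other genes carries AU-rich letters. In the GENCODE M21 annotation of GRCm38 their median span was 4102 bp, against 25414 bp in 14050 other protein-coding genes tested, and the median number of exons was 3 against 9. The longest member spanned 56539 bp. The letters TATTTAT, which overlap the AU-rich elements that RNA-binding proteins such as the member Zfp36 use to speed decay, were in the 3′ UTR of 21 of 36 members (58.3%), against 28.0% of the other genes with a 3′ UTR, and 15 members held none. The median 3′ UTR was 898.5 bases in members and 1004 bases in the other genes. The stretches below show the densest 30 bases in 3 members, with each ATTTA in capitals, to show how closely the repeats can follow each other.
Fos (chr12:85477090-85477119, plus strand): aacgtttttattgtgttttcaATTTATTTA
Cyr61 (chr3:145646996-145647025, minus strand): agagaATTTATTTAtaaaattaatcATTTA
Ppp1r15a (chr7:45522957-45522986, minus strand): gtagtttcctattATTTATTTATTTATTTA
Decay was not measured in these libraries.

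Library totals were between 15768472 and 20815459 counts in Sox9-tg and between 17275678 and 30507326 in control samples, so that 3 counts stand for 0.0970 to 0.193 CPM (counts scaled to a common library total), and no pair of libraries held identical counts. Sox9 itself had 2207, 2741, 3597 and 3115 CPM in Sox9-tg libraries 1 to 4, against 239, 353 and 293 CPM in control libraries 1 to 3 (log2 fold change 3.30 ± 0.24, SE), so the libraries fit their labels. All 6 markers of NG2 glia were detected in every library and all 6 were called higher in Sox9-tg cells, and their summed level was 6025, 9395, 9336 and 8621 CPM in Sox9-tg libraries 1 to 4 and 1929, 2416 and 2076 CPM in control libraries 1 to 3. Oligodendrocyte markers, led by Mbp, summed to 704, 4384, 2603 and 2285 CPM in Sox9-tg libraries 1 to 4 and 139, 269 and 224 CPM in control libraries 1 to 3. In bulk samples a gene measured in fewer cells and a gene with less RNA per cell cannot be told apart.

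The libraries numbered 1 stood apart in both groups for these genes. The 36 members together had 3604, 14239, 12665 and 13014 CPM in Sox9-tg libraries 1 to 4, and 1606, 7093 and 7630.1 CPM in control libraries 1 to 3. Library 1 was thus the lowest of its group in both, and the other libraries lay close to each other within their group. For 31 of the 36 members library 1 was the lowest of its group in Sox9-tg and in control samples alike, against 19.5% of all genes tested. The median log2 ratio of library 1 to the mean of the others in its group was -1.76 for Sox9-tg and -1.98 for control members, and -0.04 and -0.02 over all genes tested. Other values differed with the number too. The summed markers of NG2 glia, oligodendrocytes and astrocytes were also lowest in library 1 of both groups. Singly, that held for 4 of 6 NG2 glia, 4 of 5 oligodendrocyte and 3 of 5 astrocyte markers tested, beside 19.5% of all genes. Microglial markers, led by Csf1r, summed to 40.1, 277, 90.7 and 70.1 CPM in Sox9-tg libraries 1 to 4 and 88.9, 684 and 199 CPM in control libraries 1 to 3, and 7 of the 9 were lowest in library 1 of both groups. Neuronal markers, led by Tubb3, summed to 1165, 438, 832 and 807 CPM in Sox9-tg libraries 1 to 4 and 2369, 1274 and 1752 CPM in control libraries 1 to 3, highest in library 1 of both groups. Mitochondrial transcripts took 0.966, 1.23, 0.420 and 0.377% of the counts in Sox9-tg libraries 1 to 4 and 1.91, 1.61 and 1.06% in control libraries 1 to 3. No marker of either list was at 0 in any library. The part of any of these values in the members' levels was not tested, and the labels do not say what a replicate number marks.

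**Figure D1:**
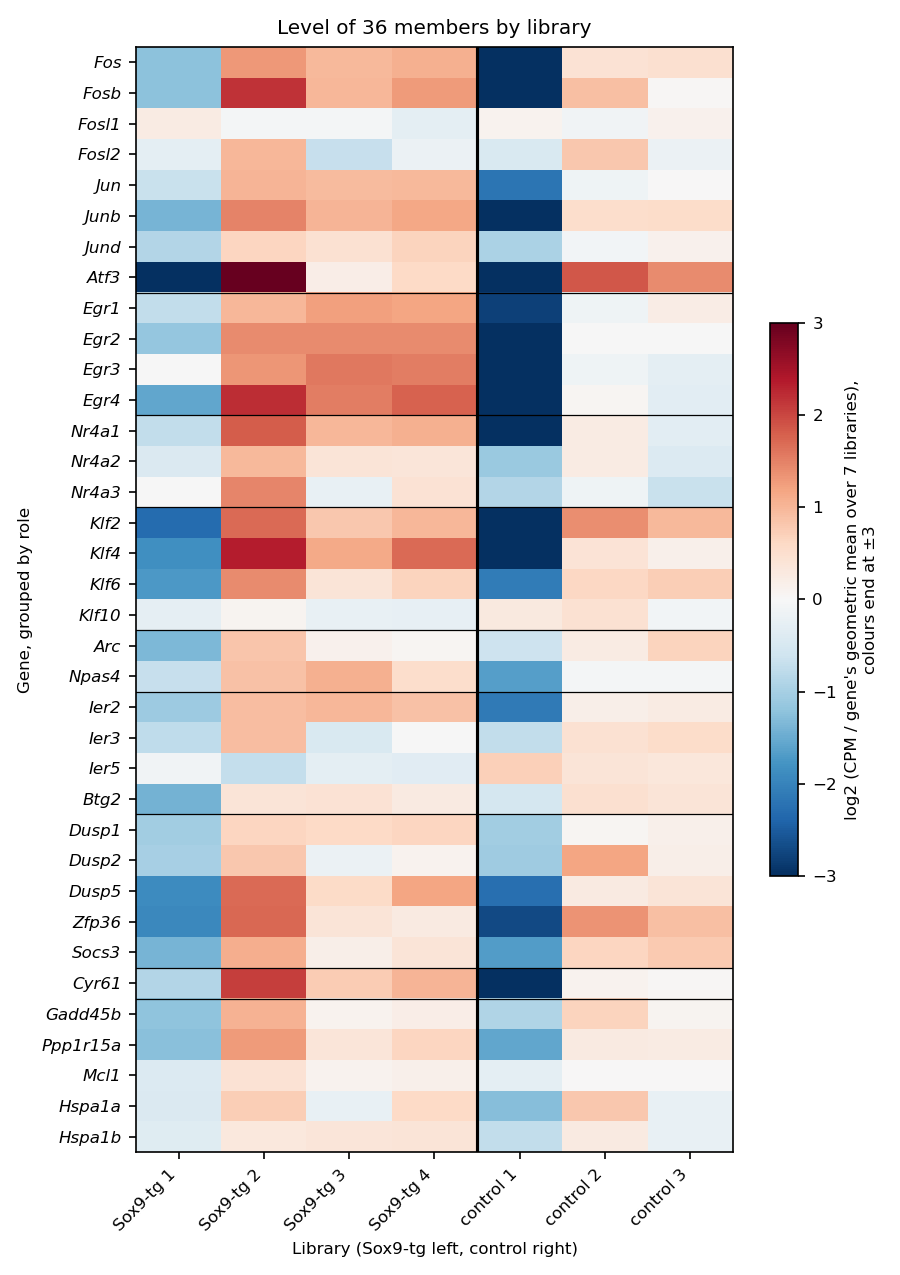
Level of each of the 36 members (rows, by role) in each library (columns, Sox9-tg left of control), as log2 of CPM over the gene's geometric mean across the 7 libraries. Red is above and blue below that mean, and colours end at 3 and -3. Library 1 of each group is the bluest column of its group for most members, with summed levels of 3604 CPM in Sox9-tg library 1 and 1606 CPM in control library 1.

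The number of members called depended on the use of a replicate block and on whether both libraries numbered 1 were kept. In the fit over all 7 libraries (edgeR quasi-likelihood test, Benjamini-Hochberg adjusted p under 0.05 over all genes), 0 members passed as higher and 1, Ier5, passed as lower, beside 7.69% of all genes called higher and 5.86% called lower. At an unadjusted p under 0.05 there were 5 members (13.9%), below the 27.0% of all genes, and DESeq2 called 1 member higher, Nr4a3, and 1 lower, Ier5, beside 10.3% of all genes higher and 8.06% lower. The median log2 fold change was nevertheless 0.60 over the 36 members and -0.01 over all genes tested, with 27 members positive. Libraries with the same number deviated together across all genes, weakly so for number 3, and a fit with the number as a replicate block was read beside it. It uses libraries 1 to 3 of both groups and leaves out Sox9-tg library 4. There, 15 members passed as higher and 1 as lower, beside 9.69 and 9.05% of all genes. A fit without both libraries numbered 1, chosen after seeing the data, called 12 members higher and 1 lower, beside 8.15 and 6.14% of all genes. The 10 members called higher in both of these fits were Fos, Jun, Junb, Egr1, Egr2, Egr3, Egr4, Nr4a1, Klf4 and Ier2. The fit without both libraries numbered 1 leaves out those where the members were low. A smaller spread and more calls could follow from that choice. Both fits also share libraries of each group, so a call in both is not independent support. The median biological coefficient of variation of the members was 0.516 without the block and 0.190 with it, against 0.201 and 0.153 over all genes.

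Set against the control library of the same number, 20 of 36 members were higher in Sox9-tg cells for all of numbers 1, 2 and 3, beside 24.2% of all genes tested. For 2 members, Ier5 and Klf10, the Sox9-tg library was lower for all 3 numbers, beside 26.1% of all genes, and 14 members were mixed. The median log2 difference of the members was 0.73 for number 1, 0.74 for number 2 and 0.25 for number 3, where over all genes it was 0.01, -0.00 and -0.03.

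**Figure D2:**
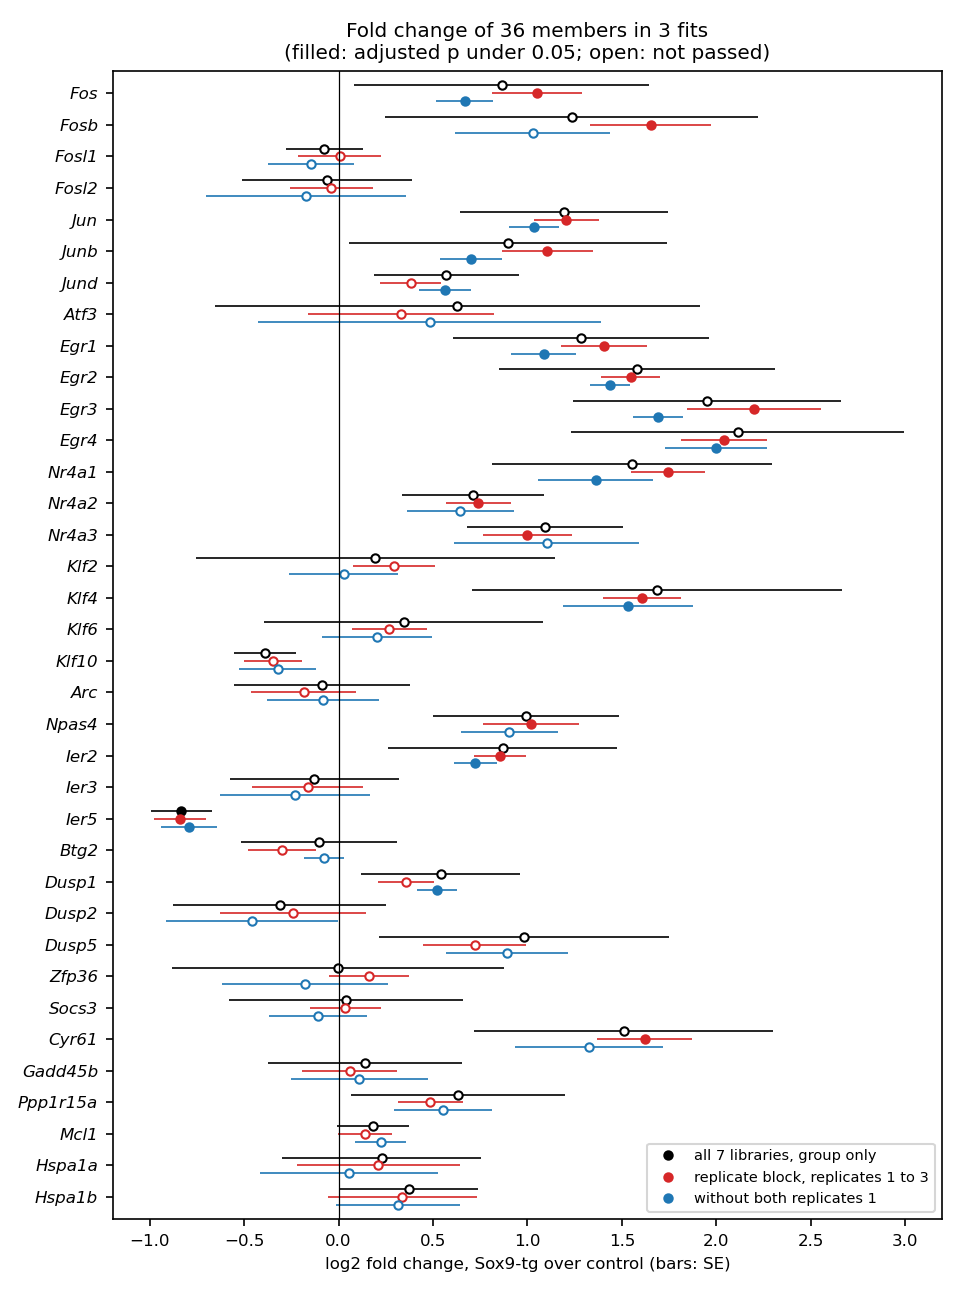
Log2 fold change of each member, Sox9-tg over control, with standard errors as bars, in the fit over all 7 libraries, with the replicate block over libraries 1 to 3, and without both libraries numbered 1. Filled points passed the threshold of 0.05. Most points lie right of 0, and Ier5 lies left of it in all 3 fits. For most members the bars are shorter with the block and without both libraries numbered 1 than over all 7 libraries.

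The AP-1 factor is a dimer of FOS and JUN proteins, and 4 of its 8 measured subunits, Fos, Fosb, Jun and Junb, rose in Sox9-tg cells in the blocked fit. Fos, the inducible subunit most used as a readout of recent stimulation, had 332, 1940.1, 1529 and 1651 CPM in Sox9-tg libraries 1 to 4, against 95.8, 1057 and 1095 CPM in control libraries 1 to 3. Both libraries numbered 1 were far below the rest, and the groups overlapped, with Sox9-tg library 1 below control libraries 2 and 3. Its log2 fold change was 0.86 ± 0.78 (SE, edgeR adjusted p = 0.535) over all 7 libraries, against 1.05 (adjusted p = 0.0134) in edgeR with the block over libraries 1 to 3 and 0.67 (adjusted p = 0.0338) without both libraries numbered 1. Jun, the main partner of FOS proteins, had 697, 2237, 2124 and 2176 CPM in Sox9-tg libraries 1 to 4, against 242, 1012 and 1116 CPM in control libraries 1 to 3. Sox9-tg libraries 2 to 4 lay above every control library, but Sox9-tg library 1 lay below control libraries 2 and 3. Sox9-tg libraries 1 to 3 each lay above the control library of the same number. The log2 fold change was 1.19 ± 0.55 (SE, edgeR adjusted p = 0.206) over all 7 libraries, against 1.21 (adjusted p = 0.00117) with the block and 1.03 (adjusted p = 0.00545) without both libraries numbered 1.

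Fosb, an inducible FOS protein whose truncated form builds up with repeated neuronal stimulation, had 86.9, 909, 402 and 489.7 CPM in Sox9-tg libraries 1 to 4, against 11.5, 381 and 208 CPM in control libraries 1 to 3. Sox9-tg library 2 was the highest and control library 1 the lowest, 0.0390 times the mean of the other control libraries. The Fosb log2 fold change was 1.65 (adjusted p = 0.00635) in edgeR with the block over libraries 1 to 3, but 1.03 (adjusted p = 0.154) without both libraries numbered 1. Junb, a JUN protein that can restrain c-Jun, had 62.8, 462, 333 and 369 CPM in the Sox9-tg libraries and 16.3, 237 and 240.2 CPM in the control libraries, again lowest in library 1 of each group. The edgeR estimate was 1.10 (adjusted p = 0.0115) with the block and 0.70 (adjusted p = 0.0376) without both libraries numbered 1. Jund, the least inducible JUN protein, had 298, 851, 754 and 869.6 CPM in the Sox9-tg libraries and 284, 517 and 599 CPM in the control libraries, and its control library 1 was closer to the others. It passed only without both libraries numbered 1, at 0.56 (adjusted p = 0.0422) in edgeR, and not with the block, at 0.38 (adjusted p = 0.149). Junb overlaps Prdx2, and Jun overlaps the antisense gene Junos. Since the use of strand in counting is not given, reads there could be shared.

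Fosl1, Fosl2 and Atf3 gave no call in any of these fits. Fosl1, a FOS-related protein of growing cells, had 6.93, 5.69, 5.67 and 4.83 CPM in the Sox9-tg libraries and 6.34, 5.46 and 6.47 CPM in the control libraries, and library 1 was the highest of its Sox9-tg group. Fosl1 overlaps Ccdc85b on the other strand, which had 4743 counts over the 7 libraries, and Fosl1 itself had 88 to 200 counts per library, so shared reads could make up part of its level. Fosl2 had 5.67, 14.02, 4.32 and 6.15 CPM in the Sox9-tg libraries and 5.06, 12.3 and 6.21 CPM in the control libraries, with library 2 the highest in both groups. Atf3, a stress factor known to mark injured neurons, had 0.578, 56.7, 6.18 and 8.15 CPM in the Sox9-tg libraries and 0.291, 19.6 and 14.5 CPM in the control libraries. Its values spread widely: library 1 held 0.0244 times the mean of the other Sox9-tg libraries and 0.0171 times that of the other control libraries, and Sox9-tg library 2 was far above Sox9-tg libraries 3 and 4. The log2 fold change 0.63 ± 1.28 (SE, edgeR adjusted p = 0.81) had the widest error of these 8 genes.

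**Figure D3:**
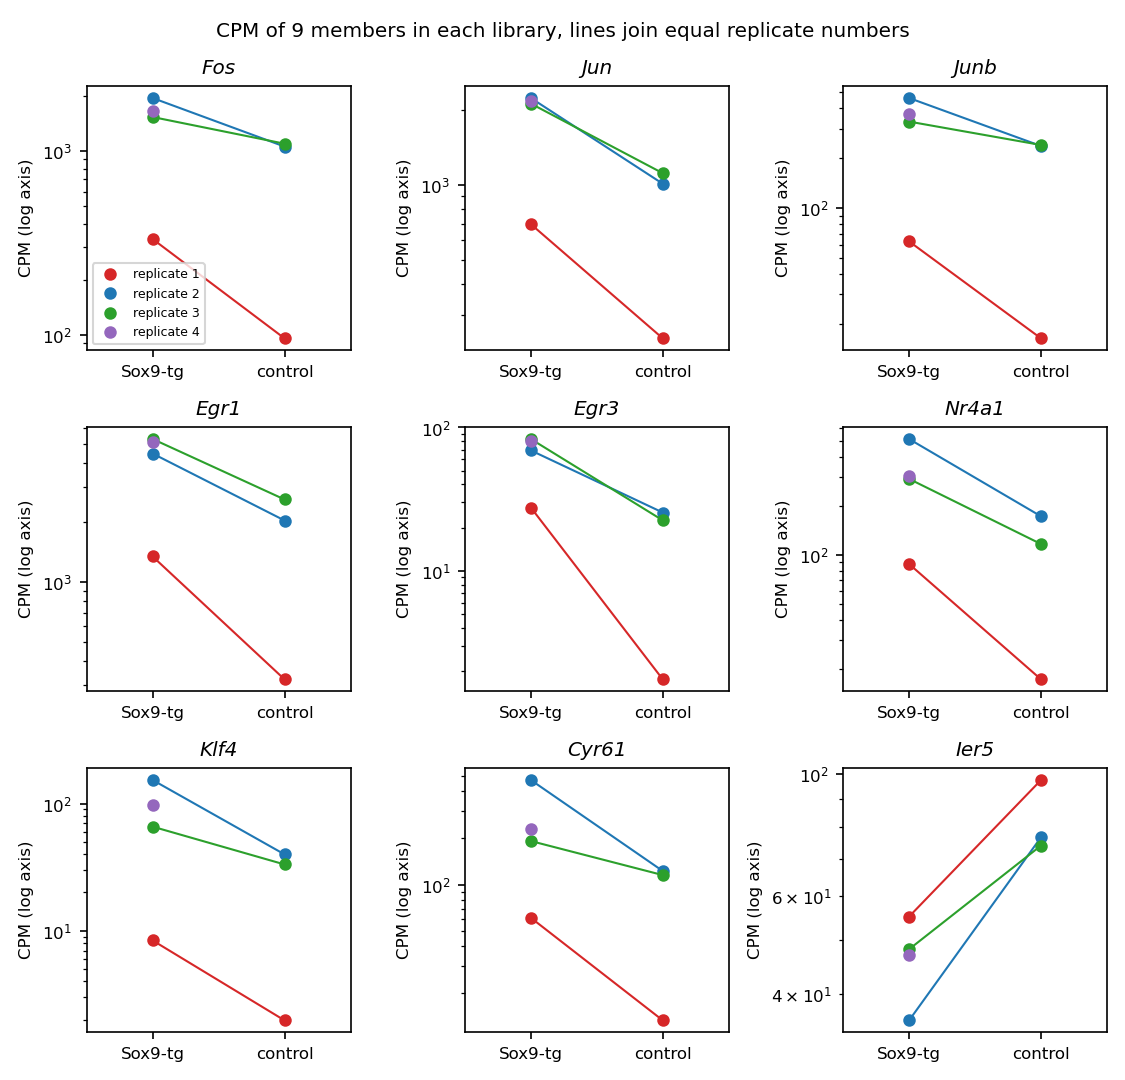
CPM of 9 members in each library on a log axis, Sox9-tg left of control, with colours for replicate numbers and lines joining equal numbers. Library 1 is the lowest point of both groups in all panels but that of Ier5, and Ier5 is lower in all 4 Sox9-tg libraries than in the 3 control libraries.

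All 4 EGR zinc finger factors, known as targets of ERK signalling through SRF, rose in Sox9-tg cells with the replicate block. They also rose in the fit without both libraries numbered 1, which was chosen after seeing the data. Egr3 was the only member higher in every Sox9-tg library than in every control library, beside 13.1% of all genes. Egr1, also called Zif268 and tied to synaptic plasticity, was the most abundant member and had 1345, 4450.0, 5269 and 5078 CPM in Sox9-tg libraries 1 to 4, against 322, 2043 and 2609 CPM in control libraries 1 to 3. Sox9-tg libraries 2 to 4 lay above both control libraries 2 and 3, and Sox9-tg library 1 lay below both. The Egr1 log2 fold change was 1.28 ± 0.68 (SE, edgeR adjusted p = 0.267) over all 7 libraries, against 1.40 (adjusted p = 0.0025) with the block over libraries 1 to 3. Egr2, known as Krox20 and as the factor that drives myelination in Schwann cells, had 7.77, 46.5, 46.1 and 46.7 CPM in Sox9-tg libraries 1 to 4, against 2.09, 17.2 and 17.1 CPM in control libraries 1 to 3. The values of libraries other than number 1 were close within each group, and the log2 fold change was 1.58 ± 0.73 (SE, edgeR adjusted p = 0.207) over all 7 libraries, against 1.55 (adjusted p = 0.000176) with the block.

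Egr3, needed for the development of muscle spindles and induced by neuronal activity, had 27.6, 69.2, 83.1 and 80.03 CPM in Sox9-tg libraries 1 to 4, against 1.74, 25.5 and 22.5 CPM in control libraries 1 to 3. Control library 1 was at 0.0727 times the mean of the other control libraries. For Egr3 the log2 fold change was 1.95 ± 0.71 (SE, edgeR adjusted p = 0.113) over all 7 libraries, against 2.20 (adjusted p = 0.00241) with the block and 1.69 (adjusted p = 0.00128) without both libraries numbered 1. Egr4, the least abundant of the family, had 1.52, 21.00, 13.1 and 15.4 CPM in Sox9-tg libraries 1 to 4, against 0.349, 4.68 and 3.59 CPM in control libraries 1 to 3. Its lowest control value rests on 6 reads. The log2 fold change was 2.11 ± 0.88 (SE, edgeR adjusted p = 0.164) over all 7 libraries, against 2.04 (adjusted p = 0.000321) with the block and 2.00 (adjusted p = 0.00679) without both libraries numbered 1, and it also passed without Sox9-tg library 1 alone, at 2.48 (adjusted p = 0.0373). Fold changes of the family lay between 1.28 and 2.11 on the log2 scale over all 7 libraries.

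The 3 NR4A orphan nuclear receptors, which act without a classical ligand and are controlled by how much of them is made, rose in Sox9-tg cells in the blocked fit over libraries 1 to 3. Nr4a1, called Nur77, had 88.00, 516, 293 and 304 CPM in Sox9-tg libraries 1 to 4, against 17.2, 173 and 117 CPM in control libraries 1 to 3. Sox9-tg library 1 was below control libraries 2 and 3, and the other Sox9-tg libraries lay above all controls. The Nr4a1 log2 fold change was 1.55 ± 0.74 (SE, edgeR adjusted p = 0.222) over all 7 libraries, against 1.74 (adjusted p = 0.000313) with the block. Nr4a2, called Nurr1 and needed for dopamine neurons, was far lower at 7.67, 20.2, 13.4 and 13.2 CPM in the Sox9-tg libraries and 4.77, 12.2 and 7.76 CPM in the control libraries, and reached 0.74 (adjusted p = 0.0149) in edgeR with the block but 0.64 (adjusted p = 0.188) without both libraries numbered 1. Nr4a3, called Nor1, had 9.19, 25.6, 7.92 and 12.4 CPM in Sox9-tg libraries 1 to 4, against 4.999, 8.48 and 5.85 CPM in control libraries 1 to 3. Sox9-tg library 2 stood above the rest, and Sox9-tg library 3 was the lowest of its group, unlike in the other receptors. Its log2 fold change was 1.09 ± 0.41 (SE, edgeR adjusted p = 0.127) over all 7 libraries, against 1.00 (adjusted p = 0.0168) with the block and 1.10 (adjusted p = 0.191) without both libraries numbered 1. DESeq2 called it over all 7 libraries, with an adjusted p of 0.0448.

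Of the 4 Krüppel-like factors, Klf4 rose with the replicate block and without both libraries numbered 1, and the others did not pass. Klf4, a pluripotency factor that restrains proliferation in many cells, had 8.40, 153, 65.8 and 97.6 CPM in Sox9-tg libraries 1 to 4, against 1.98, 39.8 and 33.2 CPM in control libraries 1 to 3. Library 1 held 0.0796 times the mean of the other Sox9-tg libraries and 0.0541 times that of the other control libraries. The Klf4 log2 fold change was 1.69 ± 0.98 (SE, edgeR adjusted p = 0.319) over all 7 libraries, against 1.61 (adjusted p = 0.00064) with the block over libraries 1 to 3 and 1.53 (adjusted p = 0.0326) without both libraries numbered 1. Klf2, an endothelial and lymphoid quiescence factor, had 2.63, 42.4, 22.5 and 25.8 CPM in the Sox9-tg libraries and 1.10, 34.3 and 25.3 CPM in the control libraries, and outside library 1 the groups overlapped. Klf6, which oligodendrocyte progenitors are known to need for myelination, had 44.9, 396, 194 and 237 CPM in the Sox9-tg libraries and 35.05, 229.5 and 250.0 CPM in the control libraries, and the groups overlapped there too, with an edgeR log2 fold change of 0.34. Klf10, a TGF-beta-induced repressor, ran the other way at 15.4, 19.8, 16.1 and 15.8 CPM in the Sox9-tg libraries and 22.8, 25.6 and 17.5 CPM in the control libraries. It was highest in control library 2 and lower in the Sox9-tg library of each number, and its log2 fold change -0.39 ± 0.16 (SE, edgeR adjusted p = 0.168) did not pass.

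Arc and Npas4, known from stimulated neurons, were low. Arc, which controls AMPA receptor uptake at synapses, had 2.63, 11.9, 7.28 and 6.98 CPM in the Sox9-tg libraries and 4.36, 7.90 and 10.6 CPM in the control libraries, with overlapping groups. Npas4, a calcium-driven factor of excited neurons, had 2.57, 7.68, 8.82 and 6.002 CPM in Sox9-tg libraries 1 to 4, against 1.34, 3.998 and 4.01 CPM in control libraries 1 to 3. Sox9-tg libraries 2 to 4 were above every control library, and Sox9-tg library 1 was below control libraries 2 and 3. The blocked estimate over libraries 1 to 3 passed at 1.02 (adjusted p = 0.0214) in edgeR, while 0.90 (adjusted p = 0.0617) without both libraries numbered 1 did not. The summed neuronal markers were highest in library 1 of both groups and lower in Sox9-tg cells, and how much of these 2 genes comes from neurons was not tested.

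Ier5 was the only member that fell in the fit over all libraries. It is an immediate-early protein that binds the phosphatase PP2A and is known to activate the heat shock factor HSF1. Ier5 had 55.1, 35.8, 48.1 and 46.9 CPM in Sox9-tg libraries 1 to 4, against 97.4, 76.7 and 74.1 CPM in control libraries 1 to 3. The highest Sox9-tg value was below the lowest control value, beside 11.5% of all genes whose groups separate in that direction. The means were 46.5 ± 8.01 CPM in Sox9-tg and 82.8 ± 12.8 CPM in control libraries (SD, n = 4 and 3), and the log2 fold change was -0.83 ± 0.16 (SE, edgeR adjusted p = 0.0116) over all 7 libraries, against -0.84 (adjusted p = 0.00254) with the block. Its highest value in each group was that of library 1, the reverse of most members. The summed neuronal markers were likewise highest in library 1 of both groups and lower in Sox9-tg cells. They were at 1165, 438, 832 and 807 CPM in Sox9-tg against 2369, 1274 and 1752 CPM in control libraries. The 4 Sox9-tg libraries were in the same order as for Ier5, and the 3 control libraries were not. The control library at 76.7 CPM of Ier5 held 1274 CPM of neuronal markers, and that at 74.1 CPM held 1752 CPM. The part of neurons in the Ier5 level was not tested. Without control library 1 the estimate was -0.68 and the call was lost (edgeR adjusted p = 0.0599). Without both libraries numbered 1 it passed in edgeR, at -0.79 (adjusted p = 0.0185).

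The other IER and BTG members were not called lower. Ier2, a short nuclear immediate-early protein, had 104, 419.5, 437 and 406 CPM in Sox9-tg libraries 1 to 4, against 50.4, 247 and 262 CPM in control libraries 1 to 3. Libraries other than number 1 were within a narrow range in each group and did not overlap, and edgeR gave 0.86 (adjusted p = 0.00239) with the block over libraries 1 to 3 and 0.72 (adjusted p = 0.0114) without both libraries numbered 1. Ier3, a regulator of cell survival, had 3.68, 11.8, 4.51 and 6.15 CPM in the Sox9-tg libraries and 3.72, 8.52 and 9.12 CPM in the control libraries, and Btg2, an antiproliferative protein that marks neurogenic divisions, had 38.1, 132, 137 and 123 CPM in the Sox9-tg libraries and 70.1, 142 and 134 CPM in the control libraries. Neither Ier3 nor Btg2 passed, at edgeR log2 fold changes of -0.13 ± 0.45 and -0.10 ± 0.41 (SE), and their groups overlapped.

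Of the 5 feedback inhibitors, which end the response, 0 passed in the fit over all libraries or with the block, and Dusp1 passed only without both libraries numbered 1. Dusp1, a nuclear phosphatase of p38 and JNK, had 74.3, 242, 232 and 239 CPM in Sox9-tg libraries 1 to 4, against 74.3, 159 and 172 CPM in control libraries 1 to 3. Library 1 was level between the groups, and the other libraries were higher in Sox9-tg cells. The edgeR log2 fold change was 0.52 (adjusted p = 0.0252) without both libraries numbered 1 and 0.36 (adjusted p = 0.138) with the block. Dusp5, which removes phosphate from nuclear ERK, had 1.89, 22.6, 10.3 and 15.8 CPM in the Sox9-tg libraries and 1.45, 8.39 and 9.12 CPM in the control libraries, with Sox9-tg libraries 2 to 4 above every control library, and its log2 fold change 0.98 ± 0.77 (SE, edgeR adjusted p = 0.463) did not pass. Dusp2, a nuclear phosphatase best known in immune cells, had 0.735, 2.54, 1.29 and 1.56 CPM in the Sox9-tg libraries and 0.697, 3.32 and 1.65 CPM in the control libraries. Zfp36, which binds AU-rich messages and leads them to decay, had 7.82, 99.01, 39.2 and 36.3 CPM in the Sox9-tg libraries and 4.59, 76.3 and 55.5 CPM in the control libraries, and its control values outside library 1 were inside the Sox9-tg range. Socs3, the inhibitor of JAK and STAT signalling, had 26.7, 149.6, 79.9 and 92.6 CPM in the Sox9-tg libraries and 22.2, 111 and 121 CPM in the control libraries, likewise overlapping. Dusp1 overlaps Ergic1 and Zfp36 overlaps Gm44710 in the annotation, so reads there could be shared.

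Cyr61, the older name of Ccn1, encodes a secreted matricellular protein that binds integrins and is a target of SRF and YAP. It had 61.01, 474, 191 and 228 CPM in Sox9-tg libraries 1 to 4, against 13.3, 122 and 115 CPM in control libraries 1 to 3. Sox9-tg libraries 2 to 4 lay above all control libraries and Sox9-tg library 1 below control libraries 2 and 3. The log2 fold change was 1.51 ± 0.79 (SE, edgeR adjusted p = 0.264) over all 7 libraries, against 1.62 (adjusted p = 0.00189) with the block over libraries 1 to 3 and 1.33 (adjusted p = 0.0704) without both libraries numbered 1.

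None of the 5 stress and survival proteins passed in any of the 3 fits. Mcl1, which holds back cell death at mitochondria, had 155, 276, 220.4 and 228 CPM in the Sox9-tg libraries and 167, 207 and 208 CPM in the control libraries. Ppp1r15a, known as GADD34 and as the subunit that reverses the integrated stress response, had 18.4, 106, 55.97 and 69.00 CPM in the Sox9-tg libraries and 14.9, 52.9 and 52.04 CPM in the control libraries. Outside library 1 the Sox9-tg values were the higher ones, and the log2 fold change 0.63 ± 0.57 (SE, edgeR adjusted p = 0.53) did not pass. Gadd45b, a stress sensor upstream of p38, had 2.05, 9.88, 5.09 and 5.47 CPM in the Sox9-tg libraries and 2.56, 7.61 and 5.05 CPM in the control libraries, with overlapping groups. The inducible HSP70 genes Hspa1a and Hspa1b, near-identical copies whose reads the counting could split, were almost silent. Summed, they had 2.05, 3.84, 2.96 and 3.76 CPM in Sox9-tg and 1.39, 3.87 and 2.30 CPM in control libraries (log2 fold change 0.31 ± 0.40, SE, edgeR adjusted p = 0.67).

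Per kilobase of exon (RPKM), which allows levels of different genes to be compared, the order of the members was led by Egr1 at 900.0 RPKM in Sox9-tg and 369.7 RPKM in control libraries, as means. Fos followed with 579.6 RPKM in Sox9-tg and 319 RPKM in control libraries. Jun had 567 RPKM in Sox9-tg and 248 RPKM in control libraries. The means of Fos, Jun and Jund (416 RPKM in Sox9-tg and 279.8 RPKM in control libraries) lie close together within the spread of their libraries, so no order among them is claimed. Hspa1a closed the order with 0.46 RPKM in Sox9-tg and 0.38 RPKM in control libraries.

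The size of the difference of library 1 from the others differed between members. Among 11742 genes with a mean of at least 5 CPM, 35 (0.298%) were at least 4-fold below the mean of their group's other libraries in library 1 of both groups, and 15 of the 32 members above that level (46.9%) were among them. In the opposite direction, 1 gene was at least 4-fold above in both. The 15 members were Fos, Fosb, Junb, Atf3, Egr2, Egr4, Nr4a1, Klf2, Klf4, Klf6, Ier2, Dusp5, Zfp36, Socs3 and Cyr61. Atf3 lay lowest, and Klf2 was at 0.0868 times the mean of the other Sox9-tg libraries and 0.0371 times that of the other control libraries. Mcl1, at 0.644 times in Sox9-tg and 0.807 times in control samples, and Jund, at 0.361 times in Sox9-tg and 0.509 times in control samples, were closer to the other libraries. Library 2 was the highest of its group for 26 members in Sox9-tg (72.2%) and 20 in control samples (55.6%), beside 31.8% and 40.3% of all genes tested. Library 2 was also the highest of both groups in summed microglial markers, in endothelial markers (13.1, 36.01, 12.3 and 15.3 CPM in Sox9-tg libraries 1 to 4 and 11.5, 152 and 8.47 CPM in control libraries 1 to 3), in markers of mural cells and fibroblasts (22.3, 51.1, 26.3 and 31.2 CPM in Sox9-tg libraries 1 to 4 and 34.00, 119 and 33.1 CPM in control libraries 1 to 3) and in red blood cell markers (14.8, 28.3, 8.70 and 5.12 CPM in Sox9-tg libraries 1 to 4 and 49.3, 77.8 and 17.04 CPM in control libraries 1 to 3). Astrocyte markers summed to 578, 652, 636 and 745 CPM in Sox9-tg libraries 1 to 4 and 887, 1848 and 1329 CPM in control libraries 1 to 3, and 3 of the 5 were called lower. The part of these cells in the members' levels was not tested.

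**Figure D4:**
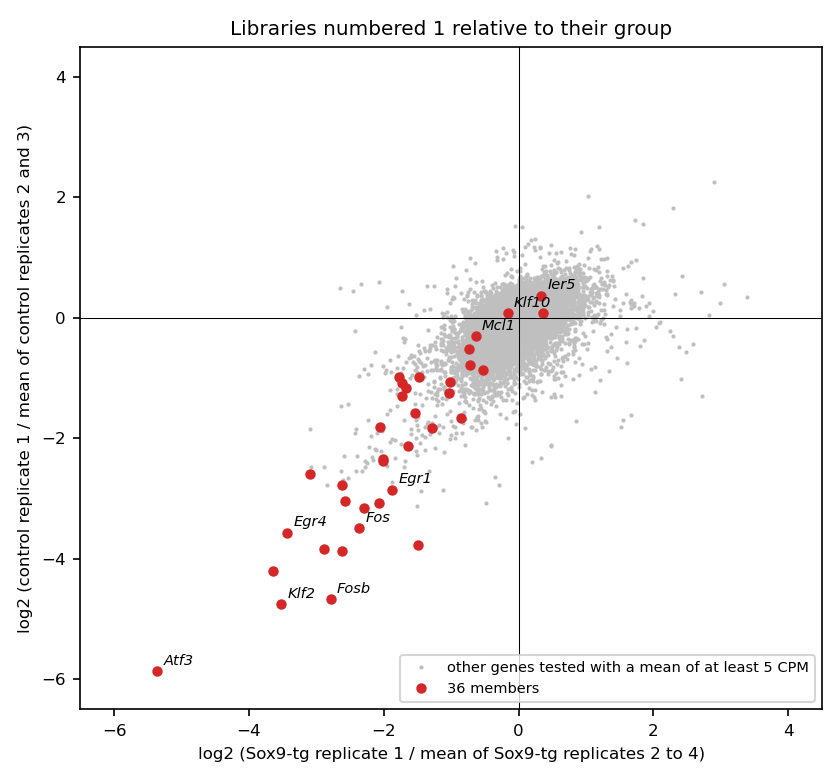
Level of each member in library 1 divided by the mean of the other libraries of its group, as log2, with Sox9-tg on the horizontal and control on the vertical axis. Red points are the 36 members, and grey points are other genes tested with a mean of at least 5 CPM. Most members lie in the lower left, with medians of -1.76 for Sox9-tg and -1.98 for control, while the medians over all genes tested were -0.04 and -0.02.

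Genes around the members in the same pathways were read from lists, with the same 7.69 and 5.86% of all genes called higher and lower as background. Of 22 upstream kinases and factors 0 were called higher and 1 lower over all 7 libraries, and their median log2 fold change was -0.08. The 1 was Rps6ka2, an ERK-activated kinase, with 29.3 ± 2.02 CPM in Sox9-tg libraries against 42.8 ± 6.70 CPM in control libraries (SD, n = 4 and 3; log2 fold change -0.54, edgeR adjusted p = 0.0256). Srf, the factor that many members share, had 159.9 ± 50.6 CPM in Sox9-tg libraries against 105 ± 32.6 CPM in control libraries (SD, n = 4 and 3; log2 fold change 0.60, edgeR adjusted p = 0.243) and passed as higher with the block over libraries 1 to 3 (edgeR adjusted p = 0.0164). Atf1, a partner of CREB, did not pass in either fit. Among 13 genes of ERK feedback 2 were higher and 1 lower, with a median of 0.19, and with that block 4 were higher and 1 lower. Phlda1 had 119.7 ± 16.8 CPM in Sox9-tg libraries against 41.7 ± 2.38 CPM in control libraries (SD, n = 4 and 3; log2 fold change 1.52, edgeR adjusted p = 0.000341), and Errfi1, an inhibitor of EGF receptors, had 16.2 ± 1.66 CPM in Sox9-tg libraries against 10.6 ± 1.73 CPM in control libraries (SD, n = 4 and 3; log2 fold change 0.61, edgeR adjusted p = 0.0372). Dusp4, an ERK phosphatase, was lower at 37.3 ± 2.53 CPM in Sox9-tg libraries against 71.4 ± 34.7 CPM in control libraries (SD, n = 4 and 3; log2 fold change -0.94, edgeR adjusted p = 0.0487).

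Of 27 other early response genes 5 were higher and 1 lower over all libraries, with a median of 0.59, close to that of the members, and with the block over libraries 1 to 3 the counts were 12 and 1, beside 9.69 and 9.05% of all genes. In 24 of these 27, library 1 was the lowest of its group in both groups, beside 19.5% of all genes. Ier5l, the relative of Ier5, was the gene called lower, with 11.1 ± 1.48 CPM in Sox9-tg libraries against 30.7 ± 3.38 CPM in control libraries (SD, n = 4 and 3; log2 fold change -1.46, edgeR adjusted p = 0.000576). Myc, the growth factor-induced regulator of proliferation, passed as higher with 76.7 ± 20.2 CPM in Sox9-tg libraries against 23.04 ± 8.76 CPM in control libraries (SD, n = 4 and 3; log2 fold change 1.73, edgeR adjusted p = 0.00727). Plk2, a kinase induced by neuronal activity, passed as higher with 114 ± 27.7 CPM in Sox9-tg libraries against 45.5 ± 9.18 CPM in control libraries (SD, n = 4 and 3; log2 fold change 1.33, edgeR adjusted p = 0.00616). Late activity genes ran the other way: of 11 tested 1 was higher and 4 lower, with a median of -0.83. Nptx2, which clusters AMPA receptors, had 19.4 ± 1.99 CPM in Sox9-tg libraries against 37.2 ± 3.02 CPM in control libraries (SD, n = 4 and 3; log2 fold change -0.94, edgeR adjusted p = 0.0019). Penk, an opioid peptide precursor, and Nrn1, a neurite growth factor, were lower too, at log2 fold changes of -1.89 and -1.51 (edgeR adjusted p = 0.00964 and 0.0113). Neuronal markers were lower in Sox9-tg cells as well, with 6 of 10 called, and their part in the late genes was not tested.

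Stress pathways gave calls in both directions. Of 20 heat shock and chaperone genes 1 was higher and 1 lower, with a median of 0.08. Cryab, a small heat shock protein that oligodendrocytes are known to hold, had 8.14 ± 1.72 CPM in Sox9-tg libraries against 2.78 ± 1.001 CPM in control libraries (SD, n = 4 and 3; log2 fold change 1.54, edgeR adjusted p = 0.0119), and Hspb8, another small heat shock protein, had 2.63 ± 0.798 CPM in Sox9-tg libraries against 7.91 ± 1.59 CPM in control libraries (SD, n = 4 and 3; log2 fold change -1.59, edgeR adjusted p = 0.00824). Dnajb4, a co-chaperone of HSP70, did not pass over all libraries but was called higher with the block over libraries 1 to 3 (edgeR adjusted p = 0.0255), where 2 of the 20 were higher and 1 lower. Of 16 integrated stress response genes tested 2 were higher and 4 lower, with a median of -0.26. Atf5, a translationally controlled factor of that response, and Slc7a11, its cystine carrier, were lower, at log2 fold changes of -0.86 and -1.21 (edgeR adjusted p = 0.00198 and 0.00297). Psat1, an enzyme of serine synthesis, was higher at 351 ± 76.9 CPM in Sox9-tg libraries against 175 ± 32.7 CPM in control libraries (SD, n = 4 and 3; log2 fold change 1.00, edgeR adjusted p = 0.0156). Of 12 unfolded protein response genes 0 passed in either direction in edgeR, with 3 at an unadjusted p under 0.05, beside 27.0% of all genes, and Sdf2l1, Atf6 and Calr had the smallest p. With the block over libraries 1 to 3, 1 of the 12 was higher, Sdf2l1 (log2 fold change 0.85, edgeR adjusted p = 0.00577). Of 14 p53 targets 2 were higher and 0 lower: Zmat3, a p53-induced RNA-binding protein, at 0.59, and Perp, a p53-induced membrane protein, at 1.31 on the log2 scale (edgeR adjusted p = 0.0101 and 0.0389). Trp53inp1, a p53-induced regulator of autophagy, did not pass over all libraries (log2 fold change -0.62, edgeR adjusted p = 0.0576) and was called lower with the block over libraries 1 to 3 (edgeR adjusted p = 0.0069), as in 7 of 14 alternatives. With that block 4 p53 targets were higher and 2 lower, and without both libraries numbered 1 the counts were 2 and 1.

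Paralogues of the members gave 2 higher and 2 lower calls among 42 tested, with a median of 0.16, and 7 higher and 2 lower calls with the block over libraries 1 to 3. Dusp15, a phosphatase known from differentiating oligodendrocytes, had 137 ± 41.8 CPM in Sox9-tg libraries against 15.4 ± 6.50 CPM in control libraries (SD, n = 4 and 3; log2 fold change 3.15, edgeR adjusted p = 0.00112). Gadd45g, a relative of Gadd45b, had 31.7 ± 8.65 CPM in Sox9-tg libraries against 109 ± 11.998 CPM in control libraries (SD, n = 4 and 3; log2 fold change -1.79, edgeR adjusted p = 0.00122). Klf7, a Krüppel-like factor of developing neurons, had 67.6 ± 12.7 CPM in Sox9-tg libraries against 112 ± 8.30 CPM in control libraries (SD, n = 4 and 3; log2 fold change -0.73, edgeR adjusted p = 0.0132). Gadd45b itself, by comparison, had a log2 fold change of 0.14 and did not pass. The calls of Rps6ka2, Errfi1, Dusp4, Perp and Klf7 were each lost in 4 to 9 of 14 alternatives, without control library 1 and without control library 3 among them. Psat1 also lost its call without either of those libraries (edgeR adjusted p = 0.0601 and 0.0699), and Cryab and Zmat3 without control library 3 (edgeR adjusted p = 0.0633 and 0.0689). The other genes called in these lists and named here, and Sox9, kept their calls and directions under all 14.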

How the data were processed

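Bulk RNA-seq counts were read for 4 Sox9-tg and 3 control libraries, grouped by genotype and title. The authors deposited raw counts per gene, whole numbers that differ in total; GRCm38 and the tools STAR 2.5.2b, Trimmomatic 0.36, Subread 1.5.2, featureCounts, DESeq and DESeq2 are named, without roles, per the submitters' processing notes. The treatment of strand and of reads with several matches is not given in the sources used here, so genes that share reads are uncertain.

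From the counts, edgeR 4.0.16 in R 4.3.3 gave TMM factors (0.965 to 1.05), dropped low genes with filterByExpr (minimum count 10), fitted genotype alone and ran the two-sided quasi-likelihood test with Benjamini-Hochberg adjustment over 16616 genes, called at 0.05. CPM use TMM-scaled totals; RPKM divides by the GENCODE M21 exon length. The procedure was tested on simulated data with known answers, with the same spread set for every gene. That spread was below the members' median, so the simulation does not cover genes as variable as these.

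The members and lists were chosen with earlier results of these data known, so their counts are descriptions and no list was tested. Named besides the 36 members are, of each list, the 3 genes with the smallest p, Sox9, and the leading gene of a marker list; 20 further genes in the closing section were named after their values were seen. A microglial marker was left out and is not reported here. The letters searched for the AP-1 and EGR sites were widened, with N at a variable base, after counts with narrower letters had been seen. Some symbols were matched under older names (Cyr61 for Ccn1). Whether numbers pair the samples was checked by correlating deviations from group means over all genes between same-numbered Sox9-tg and control libraries: 0.362 for number 1, 0.626 for number 2 and 0.110 for number 3. Control library 3 correlated slightly more with Sox9-tg library 1, at 0.133. Over the 36 members the same-number values were 0.886, 0.711 and 0.563, and control library 3 correlated more with Sox9-tg library 4, at 0.725. All same-number values exceeded 0.1, so the block is read beside the results; Sox9-tg library 4 has no partner and leaves that fit. Other alternatives were DESeq2 1.42.0, voom in limma 3.58.1, upper-quartile factors, total counts, no filter, and each library left out in turn.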

Additional observations from a re-analysis of the deposited data

Results flagged for a closer look

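In the Sox9-tg group of 4 libraries, 8 of the 36 members had a library whose gap to the nearest other exceeded Dixon's 95% limit. The share over all genes was not computed. Members share the low library 1, so the flags are not independent and the count is a description. In 6 of the 8, Sox9-tg library 1 lay below the rest: Jun at 697 CPM, Egr2 at 7.77 CPM, Ier2 at 104 CPM, Btg2 at 38.1 CPM, Dusp1 at 74.3 CPM and Hspa1b at 1.21 CPM. In the others, Sox9-tg library 2 lay above the rest. It was far above for Atf3, at 56.7 CPM, and only slightly for Klf10, at 19.8 CPM against 15.4 to 16.1 CPM. The control group has 3 libraries and was not examined in this way. Its library 1 was the lowest for 33 of the 36 members, beside 38.6% of all genes tested.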

How the results depend on the processing

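Of the 36 members, 23 kept the direction of their log2 fold change under every setting tried, and none of the other 13 was called under any of them. Over all 7 libraries 0 members were higher and 1 lower, with 1278 and 973 of all genes and 15 and 14 genes of the pathway lists. With the replicate block over libraries 1 to 3, which leaves out Sox9-tg library 4, 15 members, 33 pathway genes (Gadd45a, in 2 lists, counted once) and 1595 of all genes were higher, and 1491 of all genes and 18 pathway genes were lower. Without both libraries numbered 1, 12 members were higher. DESeq2 called 1 member and 27 pathway genes higher. Upper-quartile factors gave 1113 higher and 1112 lower genes, and total counts 1117 and 1087, against 1278 and 973 with TMM. With each library left out in turn, 575 to 1785 of all genes were higher and 390 to 1384 lower, 0 to 1 members higher and 0 to 1 lower, and 5 to 29 pathway genes higher and 8 to 16 lower. The fewest genes of all were called without control library 3, the most without Sox9-tg library 1, and the call of Ier5 was lost without control library 1. Members whose direction changed when a library was left out ranged as follows in log2 fold change: Arc -0.43 to 0.22, Atf3 -1.20 to 1.22, Btg2 -0.34 to 0.18, Dusp2 -0.68 to 0.37, Fosl1 -0.18 to 0.011, Fosl2 -0.54 to 0.42, Gadd45b -0.26 to 0.55, Hspa1a -0.11 to 0.89, Ier3 -0.56 to 0.084, Klf2 -0.34 to 0.80, Klf6 -0.13 to 0.72, Socs3 -0.40 to 0.39 and Zfp36 -0.70 to 0.59. Socs3 was -0.024 with upper-quartile factors, -0.033 with total counts and -0.11 without both libraries numbered 1. Zfp36 was 0.079 in voom and 0.16 with the block, Gadd45b -0.015 in voom and Fosl1 0.0073 with the block. The cause of these changes was not tested. Members near 1 CPM, such as Dusp2, Hspa1a and Hspa1b, are limited by their few reads.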

Other observations

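Besides the 15 members, the 35 genes at least 4-fold lower in library 1 of both groups held 20 others, named here after their values were seen. No enrichment was tested. Cx3cr1, C1qa, C1qb and C1qc are among the microglial markers used above. The others are not in that marker list, and whether they too come from microglia was not tested. They were Maff, Nfkbiz, Laptm5, Irf1, Csrnp1, Fcrls, Ctss, Cdk18, C4b, Trem2, Adgre1, Matn1, Pld4, Spp1, Tyrobp and Lyz2. Cx3cr1, the fractalkine receptor, was at 0.229 times the mean of the other Sox9-tg libraries and 0.220 times that of the other control libraries in library 1. Maff, a small MAF factor, was at 0.139 times the mean of the other Sox9-tg libraries and 0.146 times that of the other control libraries. Csrnp1 was at 0.118 times the mean of the other Sox9-tg libraries and 0.179 times that of the other control libraries. Trem2, a lipid-sensing receptor, was at 0.161 times the mean of the other Sox9-tg libraries and 0.170 times that of the other control libraries. Whether the low levels of these genes and of the members in library 1 are linked was not tested.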
